A study of Homo sapiens with 6 samples.

Results

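The comparison of sh-MIR100HG-1 with the sh-TRC control used 4 of the 6 RNA-seq samples of the series, 2 replicates of each group. Its samples were taken by their labels, and it covered the 15372 of 27745 listed genes that had at least 5 counts in at least 4 of the 6 samples. All samples were MDA-MB-231 cells, an established triple-negative breast cancer line that lacks the estrogen receptor, the progesterone receptor and amplified HER2. Cells of both groups carried a lentivirus made with the pLKO.1 vector. The control virus was sh-TRC, for which the study lists no hairpin sequence. The other virus encoded the first of the shRNAs against MIR100HG. If the control makes no hairpin, the presence of an shRNA and the loss of MIR100HG cannot be told apart here. The remaining 2 samples carried sh-MIR100HG-2. The methods give collection of infected cells after 72 h. A figure legend calls the knockdown replicates biological, and nothing is said of the sh-TRC replicates. Whether any came from separate infections is not given, so the p-values may not cover the spread between infections. Each value is an average over a culture, in which fewer cells that express a gene and less RNA per cell cannot be told apart.

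MIR100HG is a long non-coding RNA gene whose locus also holds the hairpins of miR-100, let-7a-2 and miR-125b-1. A microRNA pairs through its seed, bases 2 to 8, mainly with 3′UTRs of messenger RNAs and lowers their stability and translation. Members of the let-7 family are known to restrain HMGA2, CDC25A, CDK6 and DICER1 itself. An shRNA made by pLKO.1 is cut by the same enzyme, Dicer, and its guide strand is loaded into the same Argonaute proteins. The study asked how loss of MIR100HG affects the growth of these cells, with the inhibitors of cyclin-dependent kinases p27 (CDKN1B) and p21 (CDKN1A) and cyclin D1 (CCND1) as its main genes.

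The sequences behind this comparison are the shRNA and the microRNAs of the locus, shown because the genes that carry matching sites are described further on. The 21-base target of sh-MIR100HG-1 matched GRCh37 at chr11:121962132-121962152 on the minus strand and at no other place. It lies in an exon block of MIR100HG, from 121959811 to 121962448, which is 1 of 29 blocks with a summed length of 11009 bases. Capitals mark bases 2 to 8 of each guide or microRNA, and in the target the 7 bases that pair with them. The microRNA sequences are those of RefSeq (GRCh38.p14).
sh-MIR100HG-1 target: ttcctctgtttgtACTTAAAt
sh-MIR100HG-1 guide: aTTTAAGTacaaacagaggaa
let-7a-5p: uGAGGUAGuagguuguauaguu
miR-100-5p: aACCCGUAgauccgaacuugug
miR-125b-5p: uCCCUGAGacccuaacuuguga
The 4 seeds differ from each other. Among the tested genes, transcripts of TTC38 matched the target with 2 mismatches and those of CD46 and MEIS2 with 3. The log2FC of sh-MIR100HG-1 against sh-TRC was 0.29 for TTC38, 0.04 for CD46 and 0.24 for MEIS2, with unadjusted p-values of 0.284, 0.885 and 0.497 (edgeR). None of these 3 genes was lower with the shRNA.

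Total counts were 43804736 to 64588388 per sample, and levels are given as CPM, counts scaled to library size by the TMM method. Not all markers of the label held. In the 4 samples VIM had 1607 to 2095 CPM, CD44 538 to 828 CPM and AXL 999 to 1512 CPM. SPARC, also chosen as a high marker, had only 1.96 to 4.13 CPM. CDH1, the epithelial cadherin, had 2.03 to 7.05 CPM. EPCAM, an epithelial gene on the same marker list, had 5.62 to 12.99 CPM, above SPARC in each sample. PGR, the progesterone receptor gene, had at most 1 count per sample and did not pass the filter. The list holds 14 markers, and those not named in this paragraph are not given here. How far the label holds over the whole list is thus not shown. Of 7 markers of other cells 3 passed the filter, PTPRC at 0.286 to 0.689 CPM, LYZ at 0.633 to 3.67 CPM and CDH5 at 0 to 0.120 CPM. A pair of libraries stood apart from the rest. In sh-TRC replicate 2 and sh-MIR100HG-1 replicate 1, 76 genes had at least 20 counts each, with at most 2 in any of the other 4 libraries. CSMD1 had 573 and 628 counts in this pair and 0 in the others, and KIT had 422 and 494 and GRIN2A 360 and 413. The 76 genes held 0.0169% and 0.0175% of the counts of these libraries. Chosen so, 0 of the 76 could pass the filter on low counts, which needs at least 5 counts in at least 4 samples. ESR1, the estrogen receptor gene, passed it, with 0.186 and 2.38 CPM in the control replicates and 2.79 and 0.590 CPM in the sh-MIR100HG-1 replicates. In 60 tested genes both libraries were at least 2-fold above each of the other 4. This choice puts 1 high and 1 low library in each group, so that 0 of the 60 had an unadjusted p under 0.05 follows from it. It cannot show whether the extra reads touch other genes of the comparison. The origin of these reads was not tested. Because the pair holds 1 library of each group, several results are also given without both.

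MIR100HG itself had 41.9 and 58.5 CPM in the control samples. Levels of 15.2 and 13.2 CPM followed with sh-MIR100HG-1. Both knockdown samples lay below both controls, with a log2FC of -1.82 (standard error 0.308) and an unadjusted p of 2.97e-04. The adjusted p was 0.714 in edgeR's quasi-likelihood test. Without the 2 libraries that stood apart the log2FC was -1.67. An exact permutation test of 2 samples against 2 has 6 splits and gave p = 0.333, the smallest it can give.

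Across all genes, 0 (0% of 15372) passed a log2FC beyond 2 together with an adjusted p of 0.05, and 0 passed that adjusted p alone. The smallest adjusted p in edgeR's quasi-likelihood fit, by the Benjamini-Hochberg method, was 0.714. An unadjusted p under 0.05 was found in 1056 genes (6.87%), of which 476 were higher and 580 lower with sh-MIR100HG-1, while 49.7% of all tested genes had a log2FC above 0. These shares, 3.1% higher and 3.77% lower, are the background for the counts of genes below. Among genes with an unadjusted p under 0.05, 110 had a log2FC above 1 and 322 had one below -1. The groups did not overlap in 6221 genes, 40.5% of the total, with 20.3% higher and 20.2% lower. Single libraries decided how many genes had an unadjusted p under 0.05. It was 306 without sh-TRC replicate 2 and 434 without sh-MIR100HG-1 replicate 2, 1630 without sh-TRC replicate 1, and 473 without both libraries that stood apart. edgeR's likelihood ratio test called 34 genes at the adjusted p, 15 higher and 19 lower, and DESeq2 called 66, 31 higher and 35 lower. Both of these tests called MIR100HG, DICER1, ARID3A, CDC25A, SKP2, WEE1, COL1A1, RMND5A, IL6R, OASL, MX1, MX2, IFI6, PTGES and FSTL3 among others, and neither called CDKN1B, CDKN1A or CCND1. The genes named in the following paragraphs had adjusted p-values of 0.714 to 0.996, so their values are descriptions of these 4 samples.

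**Figure D1:**
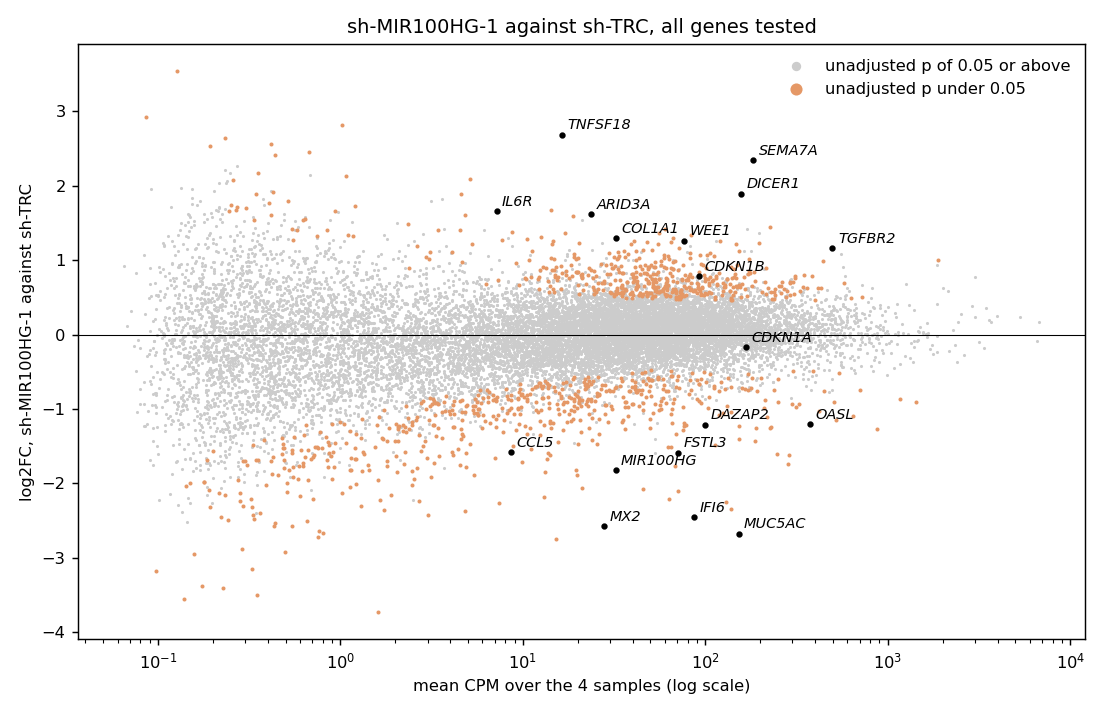
Log2FC of sh-MIR100HG-1 against sh-TRC (vertical axis) by mean CPM over the 4 samples (horizontal axis, log scale) for the 15372 genes tested, with genes at an unadjusted p under 0.05 in orange and named genes in black. Among the orange genes, 322 lie below a log2FC of -1 and 110 above 1, and 0 genes passed the adjusted threshold.

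DICER1, which encodes the enzyme that cuts microRNA precursors, had the smallest p of all genes. It lies on chromosome 14 of GRCh37, from 95552565 to 95624347 on the minus strand. Its level was 78.2 and 54.8 CPM in the control and 203 and 291 CPM with sh-MIR100HG-1. The groups were far apart, with a log2FC of 1.89 (standard error 0.271) and an unadjusted p of 9.26e-05. With sh-MIR100HG-2 the log2FC was 1.13, and the direct contrast of the shRNAs had an unadjusted p of 0.0192. DICER1 was called by the likelihood ratio test and by DESeq2, and without the 2 libraries that stood apart its log2FC was 1.89. In the list of 16 tested genes of the microRNA machinery, 14 were higher and 2 lower with sh-MIR100HG-1, with a median log2FC of 0.37 against -0.0037 over all genes. At an unadjusted p under 0.05 there were 3 higher and 0 lower. Beside DICER1 these were TNRC6B, with 59.4 and 44.2 CPM in the control and 89.6 and 108 CPM with the shRNA, and TNRC6C, with 28.97 and 27.8 CPM and then 49.1 and 43.6 CPM. Both encode GW182 proteins, which link Argonaute to the enzymes that shorten messenger RNAs. Their log2FC was 0.93 (standard error 0.236) and 0.71 (standard error 0.214).

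The list of let-7 targets leaned in the same direction. Of 22 tested genes, 19 were higher and 3 lower, with a median log2FC of 0.57, and 8 were higher and 0 lower at an unadjusted p under 0.05 (36.4% of the list). These were DICER1, ARID3A, CDC25A, HMGA2, ARID3B, CDK6, DNA2 and IGF2BP2. With sh-MIR100HG-2 the median of the list was 0.34, from a comparison that uses the same control samples. The median with sh-MIR100HG-1 was 0.59 without the 2 libraries that stood apart, 0.46 without sh-TRC replicate 2 and 0.41 without sh-MIR100HG-1 replicate 2. ARID3A, a DNA-binding partner of E2F1, had 10.3 and 12.9 CPM in the control and 28.0 and 43.4 CPM with sh-MIR100HG-1. Its log2FC was 1.62 (standard error 0.297). HMGA2, an architectural chromatin protein of embryonic and tumor cells, had 135 and 101 CPM in the control. In the knockdown samples it had 274 and 281 CPM, a log2FC of 1.23 (standard error 0.308). ARID3B, a relative of ARID3A, stood at 7.02 and 6.64 CPM in the control and 15.1 and 28.5 CPM with the shRNA. In each of these genes both knockdown samples lay above both controls.

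The annotated 3′UTRs of several of these genes hold the 7-base match to the let-7 seed, CTACCTC, written in capitals below within 28-base windows of GRCh37. The windows are shown because ARID3A, CDC25A and HMGA2 were the genes with the smallest p in the list that have a site. DICER1 and CDK6 have no such match in the annotated 3′UTR of their main transcript.
ARID3A chr19:974513-974540 (plus strand): tgcctatctctgtCTACCTCaggtctga
ARID3A chr19:975630-975657 (plus strand): ataaaactactctCTACCTCtggctggg
CDC25A chr3:48200285-48200312 (minus strand): ccatgccttaaacCTACCTCccacactc
CDC25A chr3:48199869-48199896 (minus strand): attatcccagggaCTACCTCggctttta
HMGA2 chr12:66357080-66357107 (plus strand): caacgttcgatttCTACCTCagcagcag
HMGA2 chr12:66358315-66358342 (plus strand): ccactactcaataCTACCTCtgaatgtt
Searched on the transcript strand in all 13900 genes with an annotated 3′UTR, CTACCTC was present in 1510, and their median log2FC was 0.07 against -0.01 in the 12390 genes without it. With the trends on GC content and transcript length removed, the medians were 0.03 and 0.01. In the 183 genes with at least 2 sites the median was 0.12, and 0.002 with the trends removed. Genes with the site had longer 3′UTRs, with a median of 3041 bases against 1135. Among 3′UTRs of at least 2097 bases, the medians were 0.08 and 0.05. The match to the guide of sh-MIR100HG-2, an shRNA absent from these 4 samples, gave 0.09 in 2831 genes and -0.03 in the others. The match to miR-125b-5p, CTCAGGG, was present in 2248 genes with a median of -0.04, against 0.01 without it. For miR-100-5p, TACGGGT, the medians were 0.02 in 178 genes and 0.00 in the others. The list of miR-125b targets had 12 of 23 genes higher and a median of 0.09, and that of miR-100 targets 8 of 17 and a median of -0.01. The mature microRNAs were not measured in these libraries. By qPCR after overexpression of MIR100HG, not knockdown, the study saw no change in miR-100, miR-125b or let-7a. It proposes that MIR100HG does not act through the microRNAs of its locus in these cells.

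Genes with a 7-base match to the guide of sh-MIR100HG-1, ACTTAAA, had a median log2FC of 0.11 (2678 genes), against -0.03 in the 11222 genes without it. Their median was thus not below that of the other genes. With the GC and length trends removed, the medians were -0.01 and 0.02, so the direction of the small difference depended on that step. In the 699 genes with at least 2 matches the medians were 0.14 and, with the trends removed, -0.03. DICER1 holds 4 such matches in its 3′UTR and was higher, while DDX60 holds 2 and was lower. Single genes picked by their p-values do not show what the matches do.

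**Figure D2:**
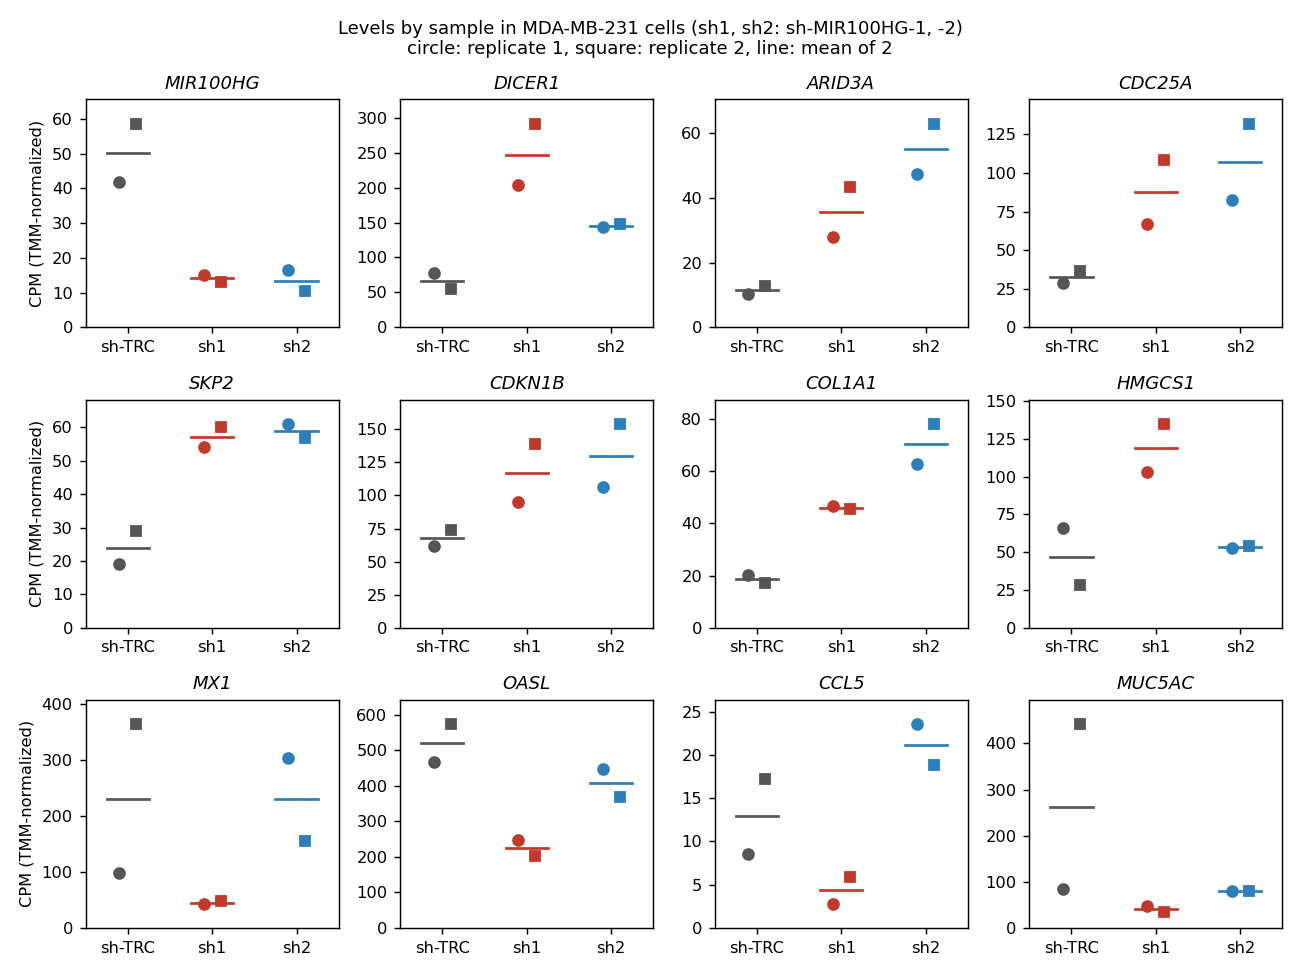
Levels of 12 named genes in CPM (vertical axes, starting at 0) in the 2 samples of sh-TRC, sh-MIR100HG-1 (sh1) and sh-MIR100HG-2 (sh2), with circles for replicate 1, squares for replicate 2 and lines for the means. DICER1, ARID3A, CDC25A, SKP2, CDKN1B, COL1A1 and HMGCS1 were higher in both sh-MIR100HG-1 samples than in both controls, and MIR100HG, MX1, OASL, CCL5 and MUC5AC were lower.

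Regulators of the step from G1 to S phase were mostly higher with sh-MIR100HG-1. Of 27 tested genes, 20 were higher and 7 lower, with a median log2FC of 0.22, and at an unadjusted p under 0.05 there were 6 higher and 1 lower. SKP2, the receptor of the ubiquitin ligase that marks p27 for degradation, had 19.1 and 28.9 CPM in the control and 54.2 and 60.2 CPM with the shRNA. The groups did not overlap, and the log2FC was 1.25 (standard error 0.255). CDC25A, the phosphatase that activates CDK2, had 28.99 and 36.3 CPM and then 66.8 and 108 CPM, a log2FC of 1.42 (standard error 0.324). CDK6, which with cyclin D phosphorylates RB1, had 91.6 and 101 CPM in the control and 153 and 268 CPM with the shRNA, a log2FC of 1.13 (standard error 0.295), which was 0.66 without sh-MIR100HG-1 replicate 2. FBXW7, the receptor of the ligase for cyclin E and MYC, had a log2FC of 0.91 (standard error 0.223). The list thus holds activators and inhibitors of the cycle among its higher members. WEE1, the kinase that holds CDK1 inactive, had 42.1 and 48.2 CPM in the control and 99.2 and 117 CPM with sh-MIR100HG-1, a log2FC of 1.26 (standard error 0.262).

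The genes on which the study centred differed from each other. After knockdown the study reported more p27 and p21, as RNA and as protein, and less cyclin D1 protein. Those measures were qPCR and western blots, not these RNA-seq counts. With sh-MIR100HG-1 the CDKN1B counts went the same way, while CDKN1A was not clearly higher and CCND1 was not lower. CDKN1B had a log2FC of 0.79 (standard error 0.280) and an unadjusted p of 0.0217 with sh-MIR100HG-1, with both knockdown samples above both controls. Its log2FC was 0.48 to 1.04 when single samples were left out. CDKN1A had 157 and 195 CPM in the control and 127 and 186 CPM with sh-MIR100HG-1, so the groups overlapped and the log2FC was -0.17 (unadjusted p of 0.512). With sh-MIR100HG-2 it had 305 and 285 CPM and a log2FC of 0.75. The direct contrast of the shRNAs, in which 9.45% of all genes had an unadjusted p under 0.05 and 0 passed the adjusted threshold, gave CDKN1A an unadjusted p of 0.00584. The sign for sh-MIR100HG-1 rested on the choice of libraries, since it was 0.24 without both libraries that stood apart. CCND1 had 532 and 525 CPM in the control and 651 and 695 CPM with sh-MIR100HG-1, a log2FC of 0.35 (standard error 0.188, unadjusted p of 0.0998). CCNF had a log2FC of 0.71 and CDK18 one of -1.40, at unadjusted p-values of 0.0409 and 0.0249. That of CCNF was 0.42 without sh-TRC replicate 1 and 1.06 without replicate 2. The lists of markers of cycling cells had slightly positive medians. In the S-phase list 29 of 43 genes were higher, with a median of 0.15, and in the G2/M list 37 of 54, with a median of 0.17. Each list had 4 genes higher and 0 lower at an unadjusted p under 0.05. Without both libraries that stood apart the medians were 0.13 and 0.09, and the same with the GC and length trends removed. The lists had a median GC content of 43.2% and 42.1%. All 3024 tested genes with 40.9% to 45.8% GC had a median log2FC of 0.10, so part of the lean is shared with genes of like GC content. GMNN, the licensing inhibitor geminin, had 34.2 and 32.0 CPM and then 54.6 and 62.7 CPM. MKI67, the proliferation marker Ki-67, had 549 and 497 CPM and then 721 and 753 CPM. The log2FC was 0.82 for GMNN and 0.49 for MKI67. The median of the G2/M list was 0.02 without sh-TRC replicate 2 and 0.27 without replicate 1. With sh-MIR100HG-2 the S-phase genes had a median of -0.12 and the G2/M genes one of -0.33.

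Interferon-stimulated genes were the list with the most negative median. These genes are switched on when cells sense interferon or foreign RNA, and many of their products act against viruses. Of 40 tested genes 37 were lower and 3 higher, and the median log2FC was -0.83. At an unadjusted p under 0.05, 24 of the 40 were lower and 0 higher, and in 29 genes both knockdown samples lay below both controls, against 20.2% of all genes. OASL had 467 and 573 CPM in the control and 248 and 202 CPM with sh-MIR100HG-1. Its log2FC was -1.21 (standard error 0.228), and it moved little when samples were left out, from -1.36 to -1.05. DDX60, a helicase that aids the sensing of viral RNA, is not on this list. It had 231 and 300.1 CPM and then 119 and 103 CPM, a log2FC of -1.26 (standard error 0.281). ISG15, a ubiquitin-like protein, had 721 and 1027 CPM and then 489 and 329.8 CPM, a log2FC of -1.09 (standard error 0.272).

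The size of the difference depended on the control sample for the members of this list with the largest changes. MX1, a GTPase that blocks viral replication, had 98.1 CPM in sh-TRC replicate 1 and 363 CPM in replicate 2, and 43.0 and 47.5 CPM with sh-MIR100HG-1. MX2 had 24.0 and 71.8 CPM and then 7.27 and 8.78 CPM. IFI6 had 52.2 and 242 CPM and then 23.3 and 30.5 CPM. In each of these genes the knockdown samples were close to each other and below both controls, while the controls differed from each other by over 2-fold. The log2FC was -2.35 for MX1, -2.58 for MX2 and -2.46 for IFI6, and without sh-TRC replicate 2 it was -1.12, -1.58 and -0.96. The median of the list was -0.54 without that replicate, with 7 genes lower at an unadjusted p under 0.05. Without both libraries that stood apart it was -0.42, with 37 of 40 genes still lower and 8 at an unadjusted p under 0.05. With sh-MIR100HG-2 the median of the list was 0.02, with 1 sample at 0.38 and the other at -0.23 relative to the control mean. The direct contrast had an unadjusted p of 0.00303 for MX1, 0.00471 for MX2, 0.00359 for IFI6, 0.00490 for OASL and 0.747 for DDX60, none of which passed after adjustment.

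**Figure D3:**
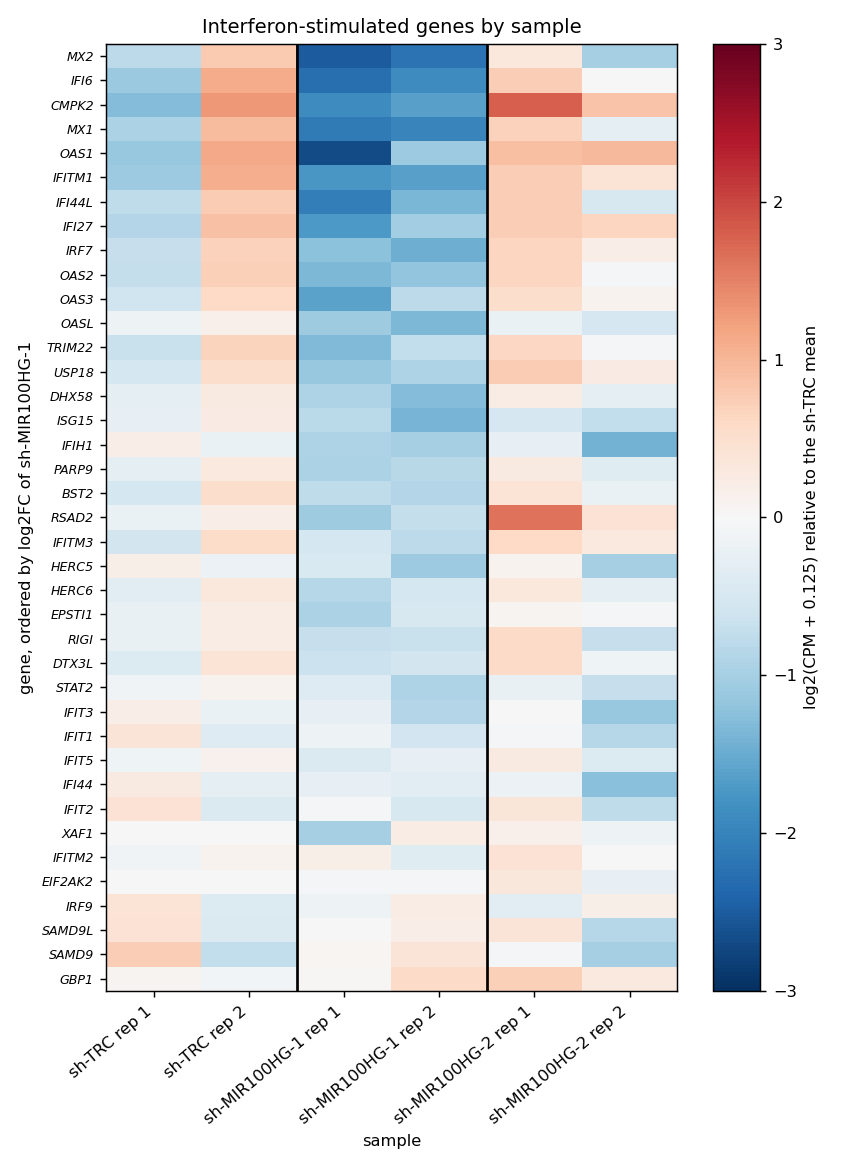
Levels of 39 of the 40 tested interferon-stimulated genes in each of the 6 samples, as log2(CPM + 0.125) relative to the mean of the sh-TRC samples (color), with genes ordered by their log2FC with sh-MIR100HG-1. In sh-MIR100HG-1 replicate 1, 36 of these genes lie below the control mean, and in replicate 2, 34 do, while sh-TRC replicate 2 lies above replicate 1 in 28 of the 39.

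Secreted inflammatory proteins included further low genes. Among 26 tested cytokines and NF-kB targets, 11 were higher and 15 lower, with 0 higher and 5 lower at an unadjusted p under 0.05, and the median log2FC was -0.17. The median turned to 0.32 without sh-TRC replicate 1 and to 0.11 without sh-MIR100HG-1 replicate 1. Without both libraries that stood apart it was -0.045, so the lean of this list to lower values depended on single libraries. CCL5, a chemokine that draws T cells and monocytes, had 8.60 and 17.2 CPM in the control and 2.79 and 5.88 CPM with sh-MIR100HG-1, a log2FC of -1.58 (standard error 0.448). CXCL10, a chemokine induced by interferon, had 18.2 and 12.3 CPM and then 6.43 and 2.83 CPM, a log2FC of -1.71 (standard error 0.625). IL1B had a log2FC of -1.44 and IL11 one of -0.60, and the groups did not overlap in either. The log2FC of CCL5 was -0.995 without sh-TRC replicate 2, and that of IL1B -0.83 without sh-TRC replicate 1. Outside this list, the enzyme PTGES, the terminal synthase of prostaglandin E2, had 261 and 382 CPM in the control. With the shRNA it had 131 and 139.8 CPM. Its log2FC was -1.25 (standard error 0.258).

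Genes of cholesterol and fatty acid synthesis, which are controlled together by SREBP factors, were mostly higher with sh-MIR100HG-1. Of 33 tested genes 28 were higher and 5 lower, with a median log2FC of 0.41, and 6 were higher and 0 lower at an unadjusted p under 0.05. HMGCS1, an early enzyme of the pathway, had 66.0 and 28.0 CPM in the control and 103 and 135 CPM with the shRNA, a log2FC of 1.34 (standard error 0.375). INSIG1, which retains the SREBP complex in the endoplasmic reticulum, had 168 and 73.6 CPM and then 335 and 323 CPM, a log2FC of 1.45 (standard error 0.503). The control replicates of HMGCS1 and INSIG1 differed by over 2-fold. Without sh-TRC replicate 2 their log2FC was 0.85 and 0.97, and the median of the list was 0.30. Without sh-TRC replicate 1 the log2FC of HMGCS1 was 2.09 and the median 0.62. With sh-MIR100HG-2 the log2FC was 0.18 for HMGCS1 and 0.69 for INSIG1. The direct contrast had an unadjusted p of 0.0138 for HMGCS1.

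Genes of the ATF4 pathway and the unfolded protein response, by which cells answer a shortage of amino acids or misfolded proteins, showed a like pattern. Of 30 tested genes 27 were higher and 3 lower, with a median log2FC of 0.42, and 6 were higher and 0 lower at an unadjusted p under 0.05. DNAJB9, a chaperone of the endoplasmic reticulum, had 42.4 and 34.7 CPM in the control and 61.8 and 128 CPM with sh-MIR100HG-1. Its log2FC was 1.30 (standard error 0.337), and 0.67 without sh-MIR100HG-1 replicate 2. CHAC1, which degrades glutathione, had 29.6 and 17.7 CPM and then 44.8 and 64.7 CPM, a log2FC of 1.21 (standard error 0.365). VLDLR and EDEM1 had a log2FC of 0.77 and 0.53, and the groups did not overlap in either. The median of the list was 0.25 without sh-TRC replicate 2 and 0.24 without sh-MIR100HG-1 replicate 2.

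**Figure D4:**
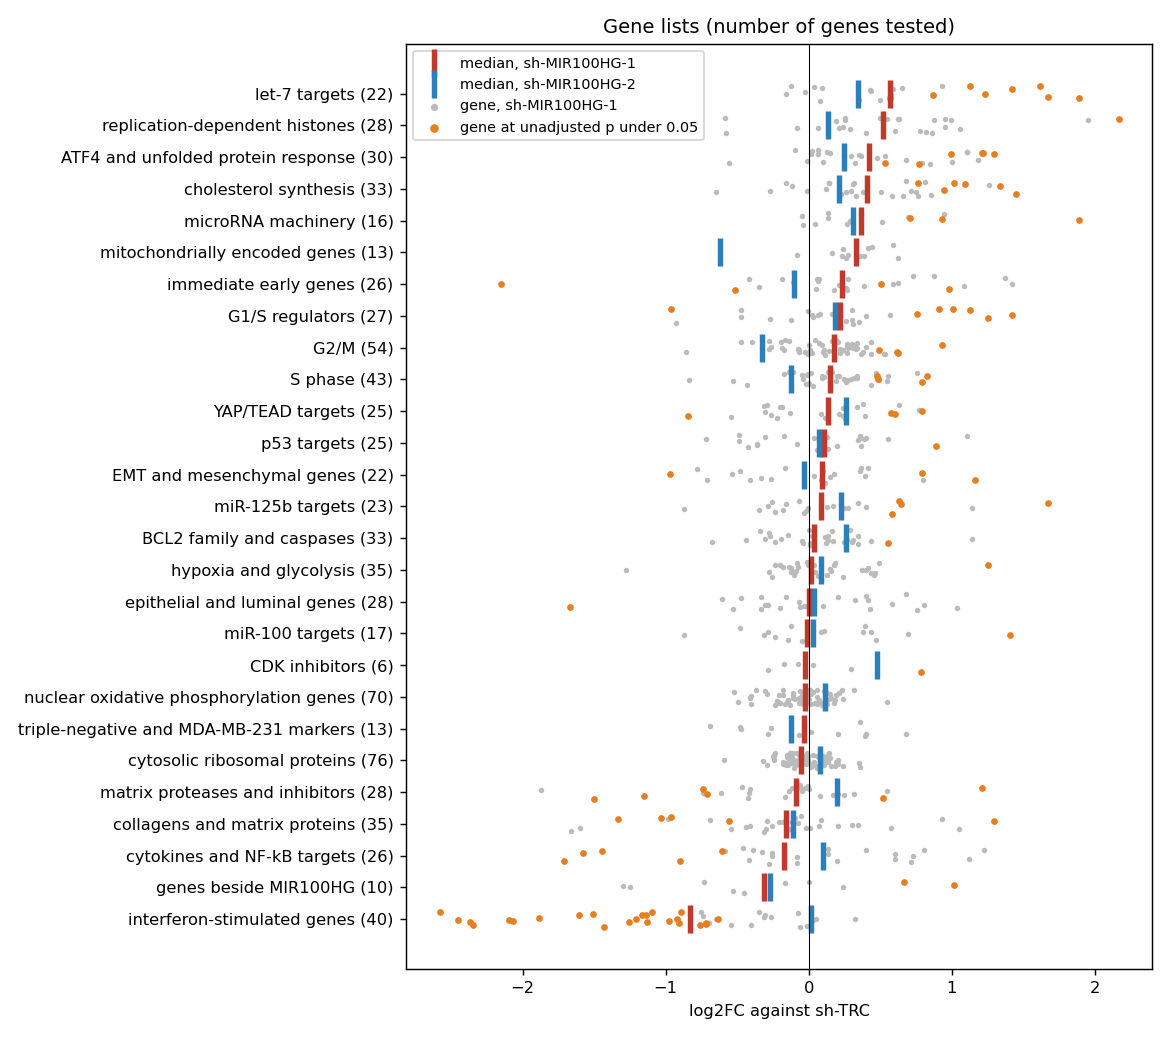
Log2FC against sh-TRC (horizontal axis) of the members of each gene list (rows, with the number of genes tested), with members of an unadjusted p under 0.05 in orange, and the median of the list for sh-MIR100HG-1 (red bar) and sh-MIR100HG-2 (blue bar). The let-7 targets have the highest median for sh-MIR100HG-1, 0.57, and the interferon-stimulated genes the lowest, -0.83, and both comparisons share the control samples.

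Matrix and surface genes differed in both directions. Of 35 tested collagens and matrix proteins 10 were higher and 25 lower, with a median log2FC of -0.16. At an unadjusted p under 0.05 there was 1 higher, COL1A1, and 4 lower. COL1A1, the main chain of type I collagen, had 20.2 and 17.2 CPM in the control and 46.5 and 45.5 CPM with sh-MIR100HG-1, a log2FC of 1.30 (standard error 0.228). COL18A1 had 139.9 and 208 CPM and then 98.2 and 80.5 CPM, a log2FC of -0.96 (standard error 0.253). COL6A1 and COL6A2, chains of type VI collagen, had a log2FC of -1.03 and -1.34, and without sh-TRC replicate 2 these were -0.24 and -0.67. TGFBR2, the receptor that binds TGF-beta, had 301 and 314 CPM and then 517 and 857 CPM, a log2FC of 1.16 (standard error 0.266). ACVR2B, an activin receptor, had 16.96 and 21.1 CPM and then 42.1 and 39.1 CPM, a log2FC of 1.09 (standard error 0.225). FSTL3, which binds and blocks activin, had 69.6 and 143 CPM and then 40.5 and 30.2 CPM, a log2FC of -1.59 (standard error 0.344). Without sh-MIR100HG-1 replicate 2 the log2FC of TGFBR2 was 0.74, and without sh-TRC replicate 2 that of FSTL3 was -0.98. Among 22 tested genes of the mesenchymal state, 13 were higher and 9 lower, with a median of 0.09. Among 28 matrix proteases and inhibitors, 8 were higher and 20 lower, with a median of -0.09. The median was -0.35 to -0.07 without single samples, both for the collagens and matrix proteins and for the proteases, and lowest in both without sh-MIR100HG-1 replicate 1.

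The genes with the smallest p outside these lists were of mixed function. RMND5A, a subunit of the CTLH ubiquitin ligase, had 45.8 and 42.9 CPM in the control and 98.0 and 100.1 CPM with sh-MIR100HG-1, a log2FC of 1.16 (standard error 0.212). CHD7, a chromatin remodeler, had a log2FC of 1.24 (standard error 0.242). IL6R, the receptor chain for interleukin 6, had 4.37 and 2.53 CPM and then 10.9 and 10.8 CPM, a log2FC of 1.66 (standard error 0.326). SLC2A3, the glucose transporter GLUT3, had 62.2 and 79.2 CPM and then 194 and 143 CPM, a log2FC of 1.25 (standard error 0.257). It belongs to the list of hypoxia and glycolysis genes given below. DAZAP2 had 144 and 135 CPM and then 65.0 and 55.3 CPM, a log2FC of -1.21 (standard error 0.231). LANCL1 had 36.7 and 44.8 CPM and then 15.99 and 20.05 CPM, a log2FC of -1.18 (standard error 0.244). CPT1C, the neuronal member of the carnitine palmitoyltransferase family, had a log2FC of -1.23 (standard error 0.274). The corresponding log2FC with sh-MIR100HG-2 was 1.18 for RMND5A, 1.09 for CHD7, 2.26 for IL6R, 1.32 for SLC2A3, -1.32 for DAZAP2, -1.07 for LANCL1 and -1.31 for CPT1C, against the same controls. Further large differences came with wide spreads between replicates. SEMA7A, a membrane semaphorin, had 61.7 and 58.5 CPM and then 152 and 458 CPM. TNFSF18, the ligand of GITR, had 6.80 and 1.99 CPM and then 16.8 and 39.7 CPM. MUC5AC, a secreted mucin that shares sequence with other mucins, had 84.3 and 441 CPM and then 46.7 and 35.6 CPM. The log2FC was 2.34 (standard error 0.557) for SEMA7A, which was 1.33 without sh-MIR100HG-1 replicate 2, 2.68 (0.766) for TNFSF18 and -2.67 (0.634) for MUC5AC, which was -1.03 without sh-TRC replicate 2.

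Among genes beside MIR100HG on chromosome 11, 4 were higher and 6 lower of 10 tested. SORL1 had 24.6 and 34.7 CPM in the control and 21.3 and 19.7 CPM with sh-MIR100HG-1, a log2FC of -0.53 (unadjusted p of 0.0726), which was -0.26 without sh-TRC replicate 2. UBASH3B had 123 and 129 CPM and then 126 and 127 CPM, a log2FC of 0.0048. BLID, which lies within the bounds of MIR100HG, had 0.279 and 0.170 CPM and then 0.181 and 0.142 CPM, too few counts for a fold. SC5D, an enzyme of cholesterol synthesis, and TBCEL had a log2FC of 1.01 and 0.66 at unadjusted p-values of 0.0225 and 0.0354. That of SC5D was 0.54 without sh-TRC replicate 2 and 1.72 without replicate 1.

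Of the remaining lists, several lay close to the median of all genes and others did not. The median log2FC was -0.05 for 76 cytosolic ribosomal proteins and -0.03 for 70 nuclear genes of oxidative phosphorylation, and neither list held a gene at an unadjusted p under 0.05. It was 0.02 for 35 genes of hypoxia and glycolysis, 0.11 for 25 p53 targets, 0.03 for 33 genes of the BCL2 family and caspases and 0.13 for 25 YAP/TEAD targets. Without single samples the median ranged from -0.16 to 0.087 for the ribosomal proteins, from -0.15 to 0.19 for the hypoxia genes and from 0.0087 to 0.31 for the p53 targets. The 13 mitochondrially encoded genes had a median of 0.33, with 12 higher and 0 of them at an unadjusted p under 0.05. These genes took 3.46% and 2.41% of the counts in the control samples and 3.30% and 3.38% with sh-MIR100HG-1. Their median was 0.14 without sh-TRC replicate 2 and 0.57 without replicate 1. With sh-MIR100HG-2 it was -0.62. The 28 tested replication-dependent histones had a median of 0.52, which was -0.25 without sh-MIR100HG-1 replicate 2, 0.99 without replicate 1 of that group and 0.11 without sh-TRC replicate 2. Of 26 immediate early genes 19 were higher and 7 lower, with 2 in each direction at an unadjusted p under 0.05. Their median was 0.24, and 0.04 to 0.46 without single samples. Of 28 epithelial and luminal genes 14 were higher and 14 lower, and of 6 CDK inhibitors 3 and 3.

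The log2FC with sh-MIR100HG-1 followed the GC content of the genes. In the quintile of genes with the lowest GC content, 26.5% to 40.9%, the median was 0.19, and 152 genes were higher and 33 lower at an unadjusted p under 0.05. In the quintile with the highest, 58.6% to 76.0%, the median was -0.21, and 37 genes were higher and 238 lower. With sh-MIR100HG-2 the corresponding medians were -0.20 and -0.06. With GC content and transcript length of each gene entered as offsets, the medians of the quintiles lay between -0.003 and 0.024, and 0 genes passed the adjusted p among 15122 tested. Under these offsets the median of the interferon-stimulated genes was -0.85, that of the let-7 targets 0.51, of the cholesterol genes 0.48, of the ATF4 genes 0.48 and of the G2/M list 0.09. The log2FC of DICER1 was 1.70 and that of MIR100HG -2.01. The cause of the trend was not tested.

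**Figure D5:**
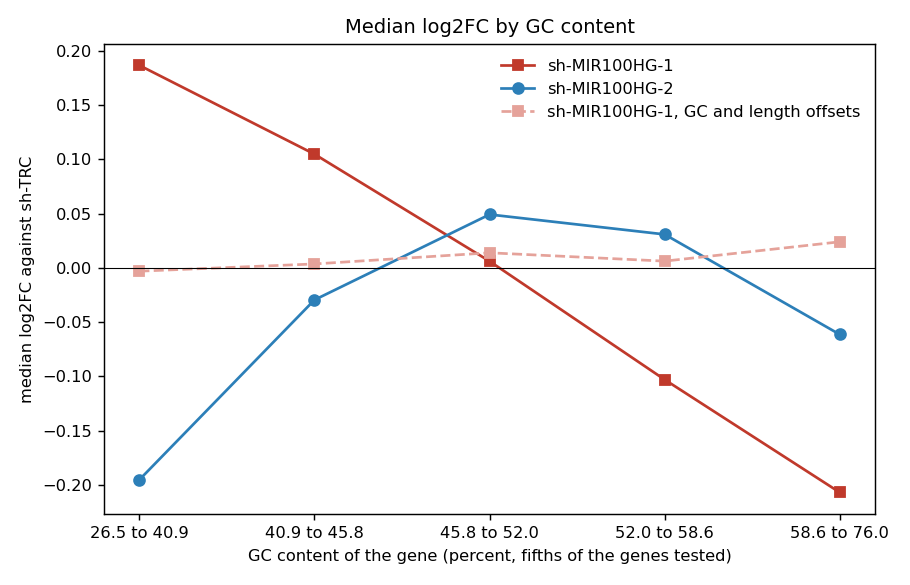
Median log2FC against sh-TRC (vertical axis) in quintiles of the tested genes by GC content (horizontal axis, percent), for sh-MIR100HG-1 (red squares), sh-MIR100HG-2 (blue circles) and sh-MIR100HG-1 after GC and length offsets (pale squares, dashed). The median for sh-MIR100HG-1 goes from 0.19 at low to -0.21 at high GC content and stays between -0.003 and 0.024 with the offsets.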

How the data were processed

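RNA was extracted with TRIzol. Per the methods, the authors trimmed barcodes, mapped reads to GRCh37 with STAR (2.5.2a in the submitters' processing notes, an earlier version in the methods), and counted exons per gene with FeatureCounts. The deposited values are raw counts, and whether strand was used is not given in the sources used here, so overlapping and paralogous genes are uncertain. A figure legend of the study describes the knockdown replicates as biological. For sh-TRC this is not given in the sources used here.

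Genes with at least 5 counts in at least 4 of 6 samples were kept, scaled by TMM and fitted in 1 model of the 3 groups with edgeR 4.0.16 (quasi-likelihood, 3 residual and 5.37 prior degrees of freedom) in R 4.3.3. P-values were adjusted over 15372 genes by the Benjamini-Hochberg method. The common biological coefficient of variation was 27.8%. Symbols came from GENCODE for 26966 of 27745 genes. 3′UTRs were those of 1 main transcript per gene. Fits were tested on simulated data. Alternatives were edgeR's likelihood ratio test, DESeq2 1.42.0, other scalings and filters, and fits with samples left out, in which a lone sample is assumed to vary like the other groups. The GC and length offsets are lowess trends of each sample over 15122 genes (98.4%).

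Genes were named by role in the study, smallest p (12 higher, 12 lower; mean CPM of at least 1, no overlap), largest log2FC (6 each way) and up to 4 per list; TTC38, CD46, MEIS2, RSAD2, DNA2, IGF2BP2, the marker genes and the genes of the extra reads were named after their values were seen. The comparison, members and gene lists were chosen with earlier results of these data known. Python 3.11.15 was used for tables. A few genes that the rules would name are not reported here.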

Additional observations from a re-analysis of the deposited data

Results flagged for a closer look

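The 76 genes with at least 20 counts in sh-TRC replicate 2 and in sh-MIR100HG-1 replicate 1, and at most 2 in each other library, lie outside the comparison, since 0 of them passed the filter. Their summed counts were 9885 and 11296 in this pair and 12 to 37 in the others. FLT4, RET and FLT3 are further examples, with 438, 379 and 226 counts in sh-TRC replicate 2 and 558, 318 and 213 in sh-MIR100HG-1 replicate 1. These genes belong to many tissues, and where the reads came from was not tested.

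RSAD2 and CCL5 were picked because they lay on opposite sides of the controls with the 2 shRNAs. A separation between the shRNAs follows from that choice, so the p-values below are descriptions and not an independent test. RSAD2, an antiviral enzyme, had 26.2 and 35.1 CPM in the control, 14.5 and 18.5 CPM with sh-MIR100HG-1 and 94.1 and 41.3 CPM with sh-MIR100HG-2. Between the shRNAs the difference, second minus first, was 2.04 on the log2 scale (unadjusted p of 7.19e-04, adjusted 0.509, edgeR). CCL5 had 23.5 and 18.8 CPM with sh-MIR100HG-2, and the difference was 2.30 (unadjusted p of 8.97e-04, adjusted 0.509, edgeR). Over all genes 1453 (9.45%) had an unadjusted p under 0.05 in this contrast and 0 passed the adjusted threshold.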

How the results depend on the processing

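The likelihood ratio test called 11 genes at both thresholds and 34 at the adjusted p, DESeq2 called 15 and 66, and the quasi-likelihood test with no filter on low counts (21349 genes) called 35 and 227. In these settings MIR100HG passed, with log2FC of -1.82, -1.82 and -1.84. Without a single sample, 0 to 3 genes were called at both thresholds and at the adjusted p, 306 to 1630 had an unadjusted p under 0.05 (119 to 916 higher, 147 to 752 lower), and the log2FC of MIR100HG was -2.05 to -1.56. The 3 calls came without sh-TRC replicate 1 and include MUC5AC. With upper-quartile scaling 297 genes were higher at an unadjusted p under 0.05. With no filter 1641 had such a p, 950 of them lower. Without both libraries with extra reads there were 473, 154 higher and 319 lower. The other settings left the calls at 0 and, apart from the crossed block given next, the count at an unadjusted p under 0.05 within 1.5 times the reported one.

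Deviations of same-numbered samples had a correlation of 0.50 across the shRNA groups, but of -0.21 for sh-TRC with sh-MIR100HG-1 and 0.022 for sh-TRC with the second shRNA. Not all pairs deviated together, so the numbers were not taken as pairs. The replicate block called 0 genes at either threshold, with 1421 at an unadjusted p under 0.05 and a log2FC of -1.84 for MIR100HG. With the numbers of the controls swapped, a setting added after seeing the data, 0 genes were called and 1667 had an unadjusted p under 0.05, 730 higher and 937 lower. In the direct contrast of the shRNAs the block, also added after seeing the data, left 0 genes at the adjusted p, with 2016 at an unadjusted p under 0.05 against 1453 without it, and CDKN1A had an unadjusted p of 0.00245 and MX1 one of 0.00267.

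The 61 other named genes were refitted under 17 settings, of which the GC and length offsets, the crossed block and the fit without both libraries were added after seeing the data. The sign held in all but UBASH3B and CDKN1A. UBASH3B became -0.066 with upper-quartile scaling, -0.0055 with no filter, -0.0048 with the CPM filter, -0.13 with the offsets and -0.031 to 0.041 without single samples. CDKN1A became 0.24 without both libraries and ranged from -0.48 to 0.083 without single samples. The causes were not tested. Of 476 list medians, 55 moved by more than the spread between replicates.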
